A study of Rattus norvegicus with 30 samples.

Results

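The wells described here are rat hepatocytes held in 300 µM phenobarbital, the lower of 2 doses, and harvested 48 h or 24 h after dosing. They were chosen by their labels alone, as the 5 arrays of the 48 h group and the 5 arrays of the 24 h group at that dose, 10 of 30 arrays in all. The question is which transcripts stood higher or lower after a second day in the drug. Each array read 1 well of frozen primary hepatocytes from male Sprague Dawley rats, grown between a collagen coat and an overlay of Matrigel and dosed on day 3 of culture. The wells with vehicle alone, again 5 at 48 h and 5 at 24 h, shared the cell type, plating and harvest times, as did 5 wells at 48 h and 5 at 24 h in 3000 µM phenobarbital. The vehicle is named water in the titles and culture medium in the field for the agent. The labels call the 5 wells of a group independent cultures and number no animals or cell lots, so the spread given is between wells. Each harvest time had its own RNA, so the time in culture and the handling of each harvest cannot be told apart.

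Phenobarbital is a barbiturate and the classic inducer of liver drug metabolism. It activates CAR, the constitutive androstane receptor, and also reaches PXR, the pregnane X receptor, and both switch on cytochrome P450 genes that oxidise drugs and steroids. Hepatocytes in culture are known to lose P450s and other liver genes and to gain cytoskeletal and matrix genes, which a Matrigel overlay slows but does not stop. A change between harvest times in drugged wells therefore has to be read beside the same change in vehicle wells.

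The arrays were Affymetrix GeneChips for the rat, which read each transcript with a probe set, a group of short oligonucleotides. Signals are relative within a probe set, so levels of different probe sets are not compared, and the number of arrays limits the precision. The 10 arrays at 300 µM had median signals between 354 and 412, against 347.5 to 424.3 over all 30. The ratio of 3' to 5' Gapdh control signal, a sign of RNA integrity, was 1.06 to 1.12 at 48 h and 1.10 to 1.14 at 24 h. For the beta-actin control the same ratio was higher, 2.56 to 3.03 at 48 h and 2.61 to 2.93 at 24 h. Correlations of log2 signals were 0.936 to 0.940 within the 48 h arrays, 0.938 to 0.946 within the 24 h arrays and 0.934 to 0.943 between them. The first principal component of the 10 arrays was taken over the 15734 probe sets whose mean at 48 h or 24 h reached the median of all signals. It held 22.8% of the variance of these and put all 5 arrays of 48 h on the other side from all 5 of 24 h. Array 1 of the 24 h vehicle wells and array 4 of the 48 h wells at 3000 µM stood apart in hybridization controls. Neither is among these 10, but both enter the fit over all 30 arrays and its shared spread. The count without them is given with the other processing choices.

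Genes that fell between 24 h and 48 h at 300 µM included P450s, enzymes of bile acid and sterol synthesis and some plasma proteins, and genes that rose included actin-based structure, amino acid synthesis and the glucose carrier Slc2a1. Of 31042 probe sets tested, 648 changed (2.09%), 361 higher (1.16%) and 287 lower (0.925%) at 48 h. A change here is an adjusted p under 0.05 from limma, fitted over all 30 arrays with Benjamini-Hochberg adjustment, and all changes are log2 differences, 48 h minus 24 h. Of the 648, 43 were at least 2-fold higher and 21 at least 2-fold lower. In 538 of the 648 the arrays of the 2 times did not overlap, which held for 1323 of all 31042 probe sets (4.26%). With array medians centred, 381 changed, 155 higher and 226 lower, and with quantile normalization 716 changed, 409 higher and 307 lower. The split between rises and falls therefore leans on the choice of scaling, turning with centring and not with quantile normalization. Centring put the median change of all probe sets at -0.02, against 0.02 as deposited. In a well read as bulk RNA, fewer cells of a type and less message per cell cannot be told apart.

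Read with the brightest probe set per gene, 468 of 14217 genes changed (3.29%), 260 higher (1.83%) and 208 lower (1.46%). These shares are the background for the gene lists below, and they include dim genes. Of the 648 probe sets, 631 were among the 15734 that reached the median signal at 1 of the times. A list of mostly bright genes, such as CAR and PXR phase I enzymes (20 of 21 at that level), therefore has a higher background than these shares. The time changes that passed at 300 µM lay mostly to the same side in vehicle wells. Of the 648 probe sets, 626 (96.6%) moved to the same side in vehicle, where 355 also passed the test and none passed in the other direction. The 355 are 54.8% of the 648 and 38.8% of the 916 that changed in vehicle (2.95% of all). Over all probe sets 56.6% had the same sign, and the time changes at 300 µM and in vehicle correlated at 0.096. Over the 15734 that reached the median signal at 1 of the times at 300 µM, the correlation was 0.446. The median size of the 648 changes was 0.42, against 0.31 for the same probe sets in vehicle, and choosing them for size at 300 µM favours the first of these medians. Read the other way, the 916 chosen in vehicle had a median of 0.26 at 300 µM and 0.41 in vehicle.

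**Figure D1:**
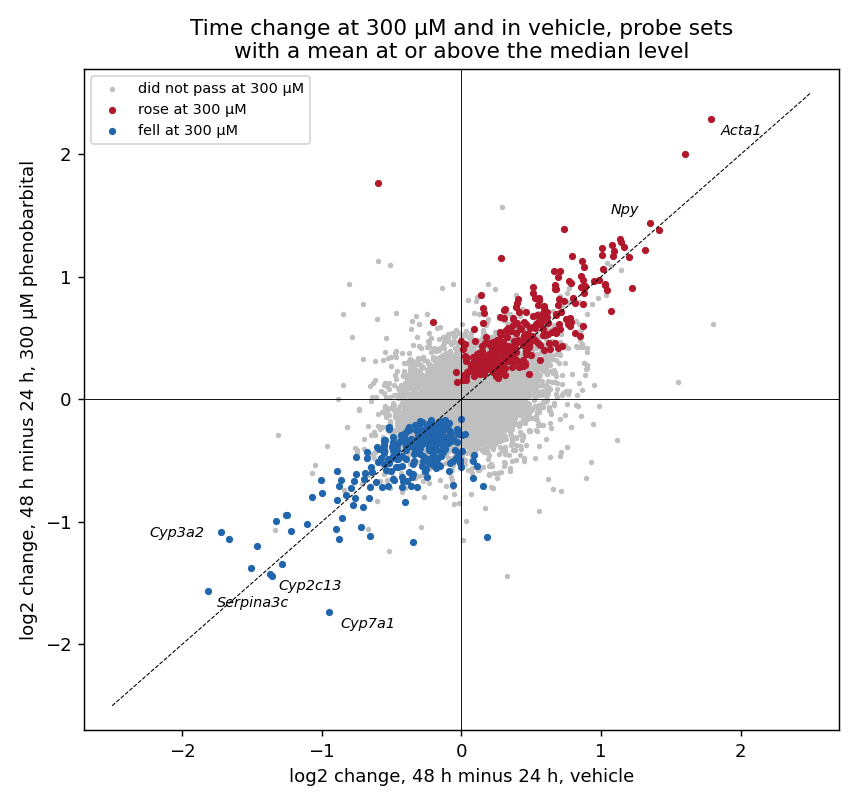
Each point is a probe set whose mean lies at or above the median signal, with its log2 change from 24 h to 48 h at 300 µM on the vertical axis and in vehicle on the horizontal axis. Red and blue points rose or fell at 300 µM, the dashed line marks equal changes, and coloured points lie mostly at the lower left and upper right.

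Over all probe sets that passed, changes ran from -2.82 to 2.59. Among genes that reached the median signal at 1 of the times and whose wells did not overlap, the largest fall was in Cyp7a1, whose enzyme takes the first and rate-limiting step from cholesterol to bile acids. Its log2 signal was 11.31, 11.56, 11.52, 11.88 and 11.91 in the 48 h wells, against 13.21, 13.79, 13.09, 13.57 and 13.21 in the 24 h wells. Every 48 h well lay more than a log2 unit below every 24 h well. The change was -1.74 (SE 0.237, limma adjusted p 1.12e-05), 3.33-fold lower at 48 h. In vehicle it fell by 0.95 (adjusted p 0.0195), to 10.61 ± 0.17 at 48 h against 11.56 ± 0.352 at 24 h (SD, n = 5 each).

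Among the same genes, the largest rise was in Acta1, which encodes skeletal muscle alpha-actin and is normally silent in liver. Its log2 signal was 12.91, 12.68, 12.76, 12.42 and 12.04 at 48 h, against 10.73, 9.70, 10.64, 9.95 and 10.33 at 24 h. The lowest 48 h well stood above the highest 24 h well. The change was 2.29 (SE 0.248, adjusted p 2.77e-07), 4.89-fold higher at 48 h, and in vehicle it rose by 1.79 (adjusted p 1.41e-05).

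Other large rises were in Npy, the gene of neuropeptide Y (1.44), the signalling adaptor gene Shc4 (1.39), the glycolytic enzyme genes Eno2 (1.38) and Pfkp (1.21), and the protease inhibitor gene Serpine2 (1.31). Ndrg1 (1.29), a stress- and differentiation-regulated gene, the laminin chain gene Lamb3 (1.26), Lmcd1 (1.25), the zinc finger factor gene Egr2 (1.23), Bex3 (1.22), the transcription factor gene Sox4 (1.17) and the kinase gene Prkcb (1.16) completed the 15 with Cox6a2 (1.90) and Tmem255b (1.57). Cox6a2, Tmem255b, Shc4, Eno2 and Serpine2 started from 24 h means below the median signal, where log2 changes are imprecise. Tmem255b no longer passed without array 2 of the 24 h wells (adjusted p 0.0620). All 15 moved to the same side in vehicle, where 13 passed the test and Cox6a2 and Tmem255b did not (adjusted p 0.0713 and 0.0986).

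Among the 15 largest falls chosen in this way, Cyp7a1 was followed by the serine protease inhibitor gene Serpina3c (-1.57), the neutrophil chemokine gene Cxcl1 (-1.44), the P450 gene Cyp2c13 (-1.43) and Dhrs7l1 (-1.34). Serpina6, which encodes the corticosteroid carrier of blood, fell by 1.14, and Slco1a4, an uptake carrier for bile acids and drugs, also by 1.14. Cyp3a2 (-1.08), Cyp2e1 (-1.08), the carbonic anhydrase gene Car3 (-1.05), the estrogen sulfotransferase gene Sult1e1 (-1.04), Spink1l (-1.02), Ttc36 (-0.9957), Pcp4l1 (-0.97) and Serpina3l (-0.95) followed. All 15 fell in vehicle too, with changes there from -0.71 to -1.81.

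**Figure D2:**
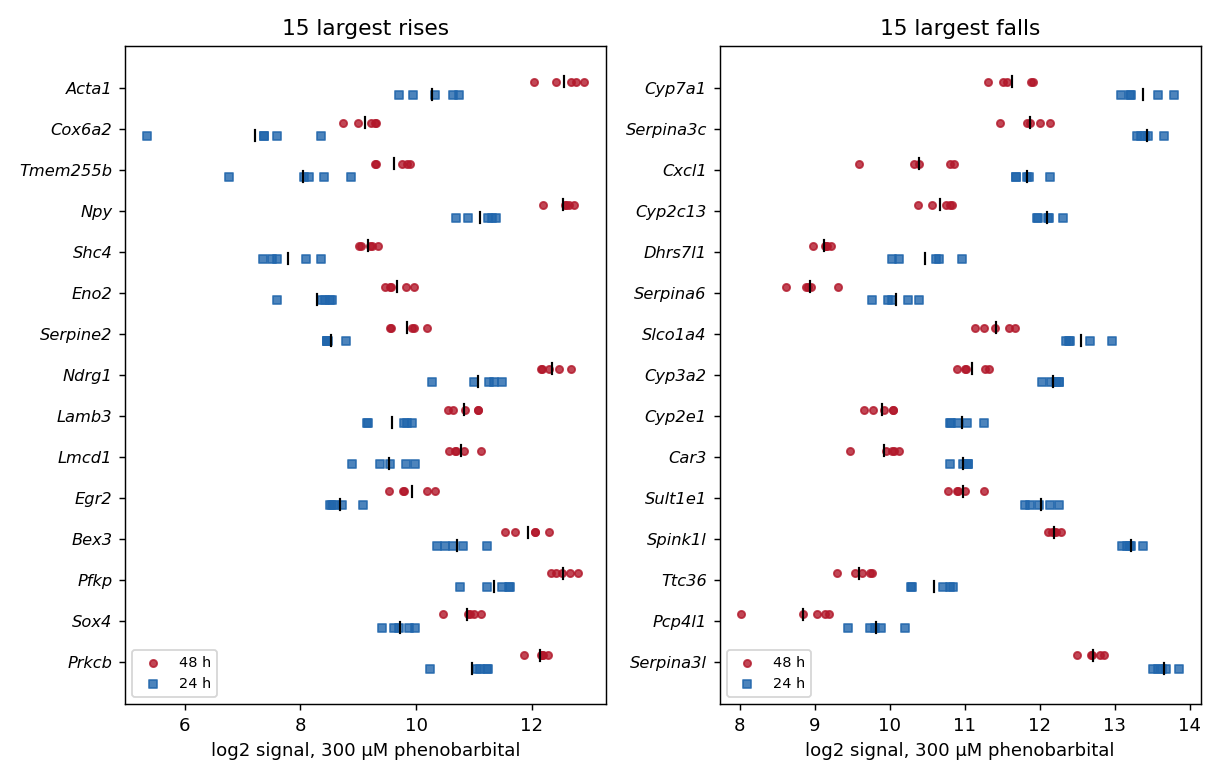
Log2 signal of each 300 µM array, with 48 h as red circles above 24 h as blue squares and black bars at the means, for the 15 largest rises (left) and the 15 largest falls (right) among genes that reached the median signal at 1 of the times and whose arrays did not overlap. No 48 h array overlaps a 24 h array of the same gene, as the rule for naming them required, and Cox6a2 spreads widest at 24 h.

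The P450 genes that phenobarbital induces come first. The probe set that reads Cyp2b1 and Cyp2b2 together, the classic CAR targets of rat liver, had log2 signals of 14.36, 14.53, 14.48, 14.56 and 14.72 at 48 h, against 15.04, 15.29, 15.04, 15.28 and 15.21 at 24 h. All 5 wells at 48 h lay below all 5 at 24 h, a change of -0.64 (SE 0.217) that missed the threshold (adjusted p 0.157). In vehicle the same probe set stood at 10.82 ± 0.251 at 48 h and 10.57 ± 0.0802 at 24 h, a change of 0.26 (adjusted p 0.700). The SD between wells was 0.131 and 0.127 at 300 µM and 0.825 in the 48 h wells at 3000 µM, and the fit shares 1 spread over all groups. Fitted on the 10 arrays at 300 µM alone, the fall passed (adjusted p 0.000103). The difference in time change from vehicle was -0.90 (95% interval -1.52 to -0.27), with an unadjusted p of 0.00624 and an adjusted p of 0.632, and it passed with the 3000 µM arrays left out (adjusted p 0.0122).

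Cyp2c6v1, another CAR-induced P450, stood at 15.87 ± 0.0552 at 48 h and 15.93 ± 0.0503 at 24 h, a change of -0.06 with an adjusted p of 0.803. In vehicle it fell by 0.27 (adjusted p 0.00305), and the difference between these changes was 0.21 (interval 0.05 to 0.37, adjusted p 0.676). Cyp3a23-3a1, a PXR target, had a value of -0.0044 (adjusted p 0.995). The receptor genes themselves did not pass: Nr1i3, which encodes CAR, was at -0.29 (adjusted p 0.598) with no overlap of the wells, and Nr1i2, which encodes PXR, at 0.05 (adjusted p 0.913).

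Other P450s fell by much more. Cyp3a2, a testosterone-hydroxylating P450 of male rats, had log2 signals of 11.01, 10.90, 11.27, 11.0036 and 11.33 at 48 h, against 12.03, 12.26, 12.15, 12.22 and 12.26 at 24 h. No well of 48 h reached the lowest of 24 h, and the change was -1.08 (SE 0.108, adjusted p 4.85e-08). In vehicle Cyp3a2 fell by 1.72, to 9.78 ± 0.266 at 48 h against 11.50 ± 0.165 at 24 h. The difference between the 2 changes was 0.64 (interval 0.33 to 0.95), with an unadjusted p of 0.000202 that did not survive adjustment (0.620).

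Cyp2c13, a male-specific P450, had 10.57, 10.38, 10.80, 10.76 and 10.84 at 48 h, against 11.97, 12.11, 11.96, 12.12 and 12.30 at 24 h. Its fall of 1.43 (SE 0.0889, adjusted p 2.8e-12) had a counterpart of 1.37 in vehicle, with a difference of -0.05 (interval -0.31 to 0.20). Cyp1a2, which the aryl hydrocarbon receptor controls, stood at 12.53 ± 0.108 at 48 h and 13.47 ± 0.226 at 24 h, a change of -0.95 (adjusted p 1.6e-06). Cyp2e1, the ethanol-oxidising P450 of the pericentral zone, stood at 9.89 ± 0.174 at 48 h and 10.97 ± 0.188 at 24 h (-1.08, adjusted p 4.06e-06).

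**Figure D3:**
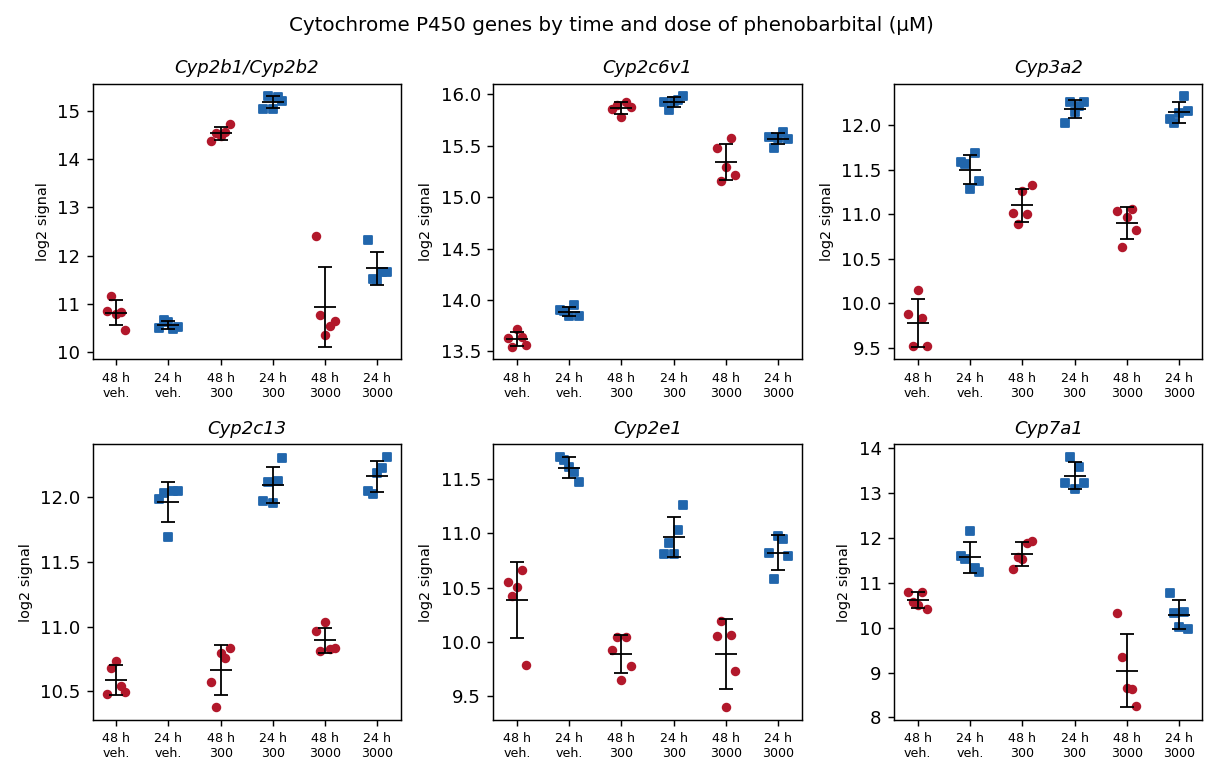
Log2 signal of 6 P450 probe sets in every well, with the mean and SD in black, for vehicle, 300 µM and 3000 µM phenobarbital, 48 h (red) left of 24 h (blue) at each dose. Cyp2b1/Cyp2b2 and Cyp2c6v1 are higher at 300 µM than in vehicle at both times, while Cyp3a2, Cyp2c13, Cyp2e1 and Cyp7a1 are lower at 48 h at every dose.

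Of 21 measured members of the list of CAR and PXR phase I enzymes, 10 fell (47.6%) and none rose. The list's median change was -0.25, against 0.02 over all probe sets. It takes in male P450s such as Cyp2c13 and Cyp3a2, so its falls are not all those of induced targets. Cyp2c6v1 and Cyp3a23-3a1 did not pass, and the shared Cyp2b1/Cyp2b2 probe set enters no list. In vehicle 12 of the 21 fell, where 4.37% of all genes changed (2.26% higher, 2.11% lower). Besides Cyp2c13 and Cyp3a2 these were Cyp3a9 (-0.82), Cyp2a2 (-0.67), Cyp2c7 (-0.66), Cyp2a1 (-0.59), Cyp2c23 (-0.55), Cyp2b3 (-0.34), Cyp2c11 (-0.24) and Por (-0.36), the reductase that feeds electrons to P450s. P450 genes of a subfamily are close in sequence, and a probe set may read more than the gene it is named for. Cyp2c11 lost its call with any of 7 single arrays left out (adjusted p up to 0.114) and Por without array 2 of the 48 h wells (0.0539). Of the 9 among these 10 genes that have a promoter in the RefSeq table, Cyp3a2 alone holds CAAAGTCCA, a motif known for the hepatocyte factor HNF4, on either strand between 250 bases before and 50 after the start. The same letters stand in 0.391% of all 33469 such windows. The 250 bases before the Cyp3a2 start (GRCr8, chr12:14343858-14344107, minus strand) are shown because it fell in all 3 conditions and holds the motif, set in capitals.
Cyp3a2: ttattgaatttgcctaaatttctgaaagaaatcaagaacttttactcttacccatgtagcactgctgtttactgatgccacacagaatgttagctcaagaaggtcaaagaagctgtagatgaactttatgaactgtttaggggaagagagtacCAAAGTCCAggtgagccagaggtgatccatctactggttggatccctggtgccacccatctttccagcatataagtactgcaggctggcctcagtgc

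A mixed list covered the growth hormone and IGF1 axis and male-predominant genes, and not every member is male-predominant or raised by growth hormone. Of its 28 measured genes, 9 fell and none rose (10 and none in vehicle). Of these 9, 5 are also in the P450 list (Cyp2c13, Cyp3a2, Cyp2a2, Cyp2c7 and Cyp2c11). The others were Sult1e1, the steroid dehydrogenase gene Hsd3b5 (-0.60), the odorant-binding protein gene Obp3 (-0.43) and Hao2 (-0.37), a peroxisomal oxidase gene. The list's median change was -0.15.

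Phase II enzymes, which attach sugars, sulfate or glutathione to drugs, moved both ways, with 2 of 38 higher and 3 lower. The sulfotransferase gene Sult1c2 had 10.18, 10.16, 10.0028, 10.11 and 10.33 at 48 h, against 9.15, 9.20, 9.01, 8.96 and 9.16 at 24 h. Its wells at 48 h were all higher, by 1.06 on average (adjusted p 3.65e-10), beside 1.01 in vehicle. Sult1e1 had 10.78, 11.01, 10.90, 10.92 and 11.25 at 48 h, against 11.80, 12.13, 11.87, 11.99 and 12.26 at 24 h (-1.04, adjusted p 3.79e-07). The glutathione transferase gene Gsta4 rose by 0.34, and Glyat (-0.72), a glycine conjugase gene, and Gstt3 (-0.41) fell, the last losing its call with any of 8 single arrays left out. Among 14 carboxylesterases and other hydrolases, Ces1c (-0.76), the paraoxonase genes Pon1 (-0.58) and Pon3 (-0.28) and the hepatic lipase gene Lipc (-0.34) fell and Nceh1 (0.40) rose, 5 in all, and 2 with either array 1 or array 2 of the 48 h wells left out. Lipc lost its call with any of 7 single arrays left out (adjusted p up to 0.176) and Nceh1 with any of 3 (up to 0.0706).

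Genes of bile acid synthesis and uptake were among those that fell. Of 19 measured bile acid synthesis genes, 6 fell (31.6%) and none rose, with a median of -0.17, and in vehicle 5 fell. Beside Cyp7a1 these were the conjugation genes Slc27a5 (-0.67) and Baat (-0.46), the side-chain oxidation genes Acox2 (-0.36) and Amacr (-0.29), and Akr1c14 (-0.30). Baat and Acox2 each lost their call with any of 3 single arrays left out (adjusted p up to 0.0922 and 0.0843). Slc27a5 had 12.02, 12.22, 12.30, 12.28 and 12.35 at 48 h, against 12.84, 13.01, 12.88, 13.01 and 12.77 at 24 h, with no overlap. The count was 3 without array 1 or array 3 of the 48 h wells or array 4 of the 24 h wells, and 3 with plain eBayes.

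Of 23 drug and bile acid transporters, 3 fell and none rose, and the count was 5 without array 3 of the 48 h wells and 6 with array weights. Slco1a4 had 11.14, 11.59, 11.26, 11.67 and 11.41 at 48 h, against 12.39, 12.96, 12.35, 12.66 and 12.40 at 24 h. It fell by 1.14 (SE 0.13, adjusted p 5.96e-07), beside 0.88 in vehicle. Slc10a1, the main sodium-linked bile acid uptake carrier, stood at 11.87 ± 0.264 at 48 h and 12.47 ± 0.146 at 24 h (-0.60, adjusted p 0.0027), with 1 well of 48 h above the lowest of 24 h. Slco1b2 fell by 0.49 and lost its call without array 1 or 5 of the 48 h wells or array 2 of the 24 h wells (adjusted p up to 0.1).

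Part of the sterol synthesis route fell in the same interval. Its genes answer to SREBP2, a factor released when membrane sterol is low. Of 23 measured, 7 fell (30.4%), none rose and 21 lay below zero, with a median of -0.22 (vehicle 6 fell, median -0.14). Msmo1, a sterol demethylation enzyme, had 13.86, 13.90, 13.78, 13.84 and 13.69 at 48 h, against 14.30, 14.59, 14.30, 14.50 and 14.43 at 24 h. Its change of -0.61 (SE 0.0811, adjusted p 7.55e-06) compares with -0.35 in vehicle (difference -0.26, interval -0.49 to -0.03, adjusted p 0.778). Idi1, which isomerises the isoprenoid unit, had 13.57, 13.78, 13.64, 13.81 and 13.73 at 48 h, against 14.17, 14.50, 14.20, 14.34 and 14.25 at 24 h, a change of -0.59 (adjusted p 1.16e-06) beside -0.26 in vehicle. In neither gene did the wells of the 2 times overlap. Fdft1 (-0.51), Mvd (-0.49), Fdps (-0.38), Tm7sf2 (-0.37) and Cyp51 (-0.36), all enzymes of the same route, fell as well, Mvd only with array 2 of the 24 h wells in the fit (adjusted p 0.0516 without it). Sqle (-0.21) and Insig1 (0.01), other SREBP2 targets, did not pass (adjusted p 0.30 and 0.98).

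The promoters of the sterol genes were searched for CCAAT, the box bound by NF-Y, which is known to work with SREBP2, and that of Idi1 is shown for its matches. Of the 7 genes that fell, 6 have a promoter in the table and 5 of these hold CCAAT on either strand (Mvd, Idi1, Fdps, Tm7sf2 and Msmo1). The box is short and stands in 37.5% of all windows, and its presence says nothing on whether the factor was bound. Idi1 (GRCr8, chr17:66547525-66547774, minus strand) holds 2 matches, both on the strand opposite to the gene and in capitals, that begin 66 and 35 bases before the start.
Idi1: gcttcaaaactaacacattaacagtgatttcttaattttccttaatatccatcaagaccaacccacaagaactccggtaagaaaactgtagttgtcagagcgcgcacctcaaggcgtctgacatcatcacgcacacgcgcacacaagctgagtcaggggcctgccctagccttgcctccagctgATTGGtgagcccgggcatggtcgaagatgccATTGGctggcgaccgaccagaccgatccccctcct

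Of 34 measured plasma protein genes, 5 fell and none rose, with a median of -0.01, against 8 falls in vehicle and a median of -0.19. Serpina6 had 8.91, 9.31, 8.89, 8.95 and 8.62 at 48 h, against 10.24, 9.76, 10.03, 9.98 and 10.38 at 24 h. The groups did not overlap, and the fall of 1.14 (adjusted p 4.28e-05) stands beside 1.66 in vehicle (difference 0.52, interval 0.03 to 1.01, adjusted p 0.796). The apolipoprotein gene Apoa2 had 14.68, 14.49, 14.61, 14.67 and 14.57 at 48 h, against 15.31, 15.33, 15.27, 15.35 and 15.40 at 24 h (-0.73, adjusted p 2.05e-09). Apom (-0.46), Apoc1 (-0.31) and Fetub (-0.29) also fell. Alb, the albumin gene, did not pass (-0.02, adjusted p 0.986), nor did Ttr (0.06), Apoa1 (0.15) or Apob (-0.03).

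Among 30 hepatocyte transcription factors and nuclear receptors, 4 fell and none rose at 300 µM. In vehicle 1 fell and 2 rose, and the difference between these counts was not tested. The 4 that fell at 300 µM are named next. They were Cebpd (-0.63), Cebpa (-0.40), the oxysterol receptor gene Nr1h3 (-0.28) and Hnf4a (-0.27), the gene of a master regulator of hepatocyte identity. Hnf4a had 12.85, 12.82, 12.84, 12.72 and 12.73 at 48 h, against 13.06, 13.0015, 13.02, 13.06 and 13.16 at 24 h, a small shift with no overlap (adjusted p 0.0208). The count was 1 with plain eBayes or with the mean of probe sets per gene and 2 without array 2, 4 or 5 of the 24 h wells or array 4 or 5 of the 48 h wells, and Hnf4a, Cebpa and Cebpd lost their calls in 3, 4 and 7 of the 10 omissions of a single array.

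Among amino acid genes, 6 of 51 urea cycle and amino acid catabolism genes fell and none rose (11 fell in vehicle). These were the tyrosine pathway gene Hgd (-0.61), the tryptophan pathway gene Haao (-0.51), the lysine-degrading Aass (-0.50), Bhmt (-0.47), Sardh (-0.32) and Cth (-0.29). Bhmt lost its call with any of 8 single arrays left out (adjusted p up to 0.116) and Aass with any of 3 (up to 0.0869). No gene of the urea cycle itself passed, and the count was 3 without array 5 of the 24 h wells. Of 18 pericentral genes, which are highest near the central vein, Cyp7a1, Cyp2e1, Cyp1a2 and Slco1b2 fell and none rose. None of 21 periportal genes passed at 300 µM, while 4 fell in vehicle, and the difference between these counts was not tested.

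**Figure D4:**
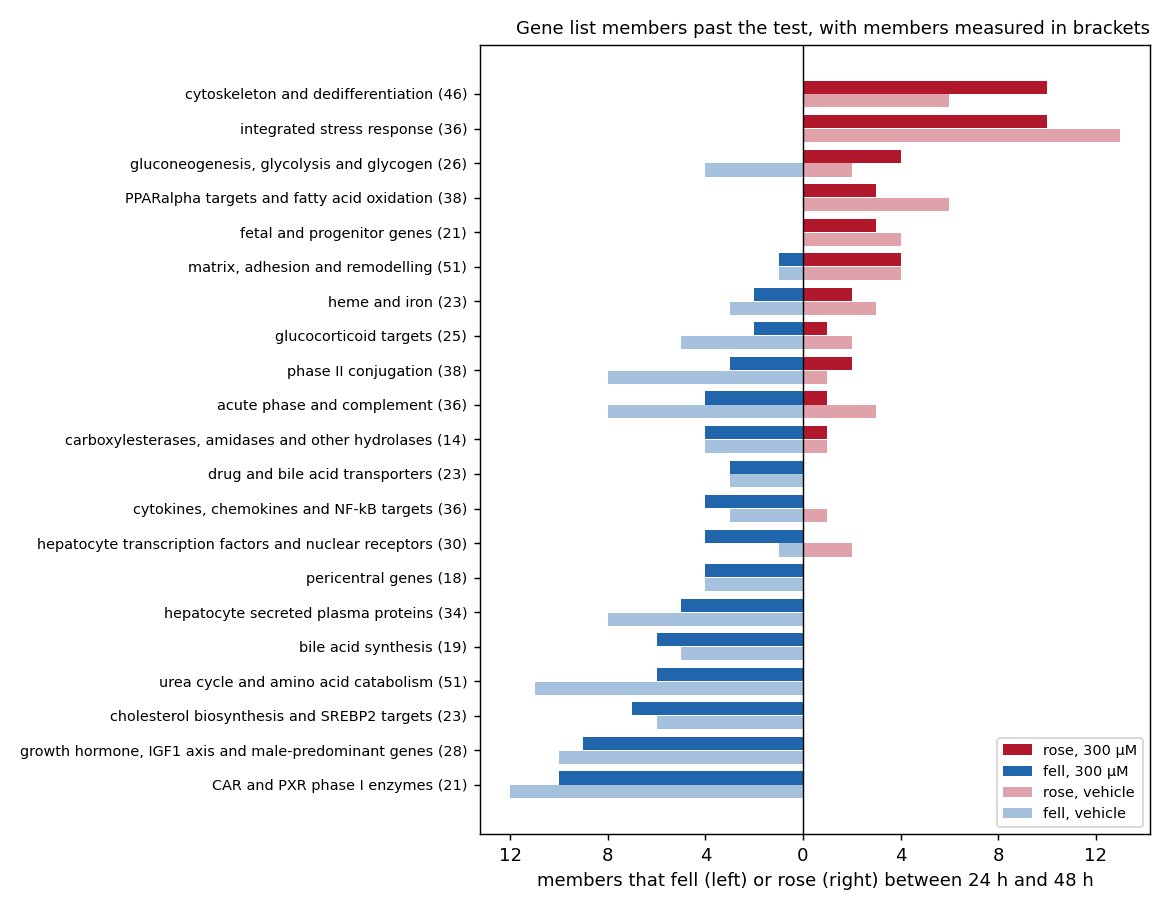
Number of members that rose (right, red) or fell (left, blue) in each gene list with at least 3 changes at 300 µM, with 300 µM in full colour above vehicle in pale colour and the members measured in brackets. Cytoskeleton and integrated stress response lead the rises and CAR and PXR phase I enzymes the falls, with vehicle to the same side.

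Of 46 measured cytoskeleton and dedifferentiation genes, 10 rose (21.7%) and none fell, with 34 of 46 above zero and a median of 0.11, and in vehicle 6 rose. After Acta1 the largest was Flna, the gene of the actin crosslinker filamin A, with 11.51, 11.04, 11.27, 10.93 and 10.97 at 48 h, against 10.27, 9.62, 10.15, 10.05 and 10.41 at 24 h. Every 48 h well was above every 24 h well, by 1.05 on average (adjusted p 6.08e-05), beside 0.70 in vehicle. The calcium-binding Anxa3 (0.49) and Anxa5 (0.37), the actin regulator Cnn2 (0.51), the crosslinker Actn1 (0.42), S100a11 (0.35), the intermediate filament gene Vim (0.31), Tpm4 (0.30) and the adhesion gene Vcl (0.27) made up the rest. The count was 6 without array 1 of the 48 h wells and 4 with array medians centred.

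Summed signal of 13 cholangiocyte markers was 16506 to 17166 in the 48 h wells and 13614 to 15375 in the 24 h wells, with Ggt1 (0.68) and Epcam (0.22) past the test. In vehicle the sums were 16751 to 18269 at 48 h and 14733 to 15477 at 24 h. Of the 13 markers, 8 lay above zero at 300 µM and 5 below, and a sum follows its brightest members. Epcam lost its call with array medians centred (adjusted p 0.383) and without array 2 of the 24 h wells. Only 5 of the 13 reached the median signal, none read 0, and their part in the structural rises was not tested. Summed signals of the other sets overlapped between the times at 300 µM: 4874 to 5862 at 48 h and 4603 to 6385 at 24 h for 17 stellate cell and fibroblast markers, and 12521 to 13319 at 48 h and 13051 to 14986 at 24 h for 16 macrophage markers. Of the 16 macrophage markers, 14 lay below zero at 300 µM (median -0.20), and in vehicle 2 fell and the sums did not overlap, at 11308 to 13688 at 48 h and 14194 to 16004 at 24 h. Their part in the falls of Cd14 and of cytokine genes was not tested. For 14 endothelial markers they were 2852 to 3911 at 48 h and 3332 to 3891 at 24 h, for 16 lymphocyte markers 2291 to 4127 at 48 h and 2829 to 4131 at 24 h, and no marker of these 4 sets passed at 300 µM. The 13 hepatocyte markers summed to 572899 to 659874 at 48 h and 548213 to 656546 at 24 h, with Hnf4a and Cyp2c11 lower.

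The promoters of the 10 structural genes were searched for the CArG box, the site of serum response factor, which is known to drive muscle and actin genes. Acta1 and Cnn2 hold it, on a letter set that stands in 1.64% of all windows, and the other 8 do not within this window. Both are shown with the box in capitals, Acta1 (GRCr8, chr19:68784195-68784444, minus strand) with the box starting 94 bases before the start and Cnn2 (GRCr8, chr7:10370313-10370562, minus strand) with the box starting 71 before it. Cnn2 kept its call only with most arrays present, losing it with any of 6 single arrays left out (adjusted p up to 0.103).
Acta1: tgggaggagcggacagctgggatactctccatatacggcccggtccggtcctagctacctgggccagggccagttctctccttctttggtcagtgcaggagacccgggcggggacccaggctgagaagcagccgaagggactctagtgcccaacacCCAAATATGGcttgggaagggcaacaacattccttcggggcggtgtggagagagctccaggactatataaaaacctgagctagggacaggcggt
Cnn2: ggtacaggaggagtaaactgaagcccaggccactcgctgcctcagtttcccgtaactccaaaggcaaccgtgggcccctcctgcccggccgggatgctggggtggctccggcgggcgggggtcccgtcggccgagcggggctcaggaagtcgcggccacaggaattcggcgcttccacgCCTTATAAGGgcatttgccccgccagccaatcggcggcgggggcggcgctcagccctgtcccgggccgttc

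Of 51 matrix and adhesion genes, 4 rose and 1 fell. Lamb3 had 11.07, 10.84, 11.07, 10.56 and 10.64 at 48 h, against 9.93, 9.17, 9.85, 9.15 and 9.79 at 24 h. Its wells did not overlap (1.26, adjusted p 9.12e-05), and Col5a2 (0.77), the plasminogen activator gene Plat (0.59) and the protease inhibitor gene Timp3 (0.54) also rose. The gap junction gene Gjb1 (-0.41), which joins hepatocytes, fell. Of 21 fetal and progenitor genes, Sox4, Ggt1 and Epcam rose and none fell. Sox4 had 11.13, 10.93, 10.91, 11.01 and 10.47 at 48 h, against 9.99, 9.71, 9.87, 9.41 and 9.61 at 24 h (1.17, adjusted p 1.79e-06). Epcam lost its call without array 2 of the 24 h wells.

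The integrated stress response is the program by which cells short of amino acids, or under translation stress, make ATF4 and with it enzymes of amino acid supply. All 36 listed genes were measured, 10 rose (27.8%), none fell and 32 lay above zero, with a median of 0.26 (13 rose in vehicle, median 0.23). Asns, which makes asparagine, had 13.67, 13.64, 13.73, 13.64 and 13.54 at 48 h, against 13.17, 13.10, 13.02, 13.28 and 13.30 at 24 h. The wells of the 2 times did not overlap, with a change of 0.47 (SE 0.0564, adjusted p 1.16e-06) and 0.45 in vehicle. The lipoprotein receptor gene Vldlr had 12.93, 12.91, 12.75, 12.80 and 13.15 at 48 h, against 12.24, 12.27, 12.19, 12.44 and 12.27 at 24 h (0.62, adjusted p 0.00871).

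The serine synthesis genes Phgdh (0.36), Psat1 (0.32) and Psph (0.27), the mitochondrial folate gene Aldh1l2 (0.37), the seryl-tRNA synthetase gene Sars1 (0.36), the stress factor gene Ddit3 (0.41), Ddit4 (0.46) and the hormone gene Fgf21 (0.44) also rose. Atf4 itself did not pass (0.09), and it is known to be controlled at translation. The count of 10 was 3 with array medians centred, and 16 with the 2 arrays that stood apart left out, with array weights or with the 300 µM arrays fitted alone. None of 33 genes of the endoplasmic reticulum unfolded protein response passed.

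Fgf21 had 12.67, 12.68, 12.66, 12.57 and 12.75 at 48 h, against 12.22, 12.31, 11.93, 12.21 and 12.44 at 24 h, with no overlap. It missed the threshold only with array medians centred (adjusted p 0.0819). Of the 10 genes that rose, 9 have a promoter in the table, and Fgf21 alone holds TGATGNAA, the amino acid response element, on either strand. The element stands in 3.98% of all windows. The Fgf21 promoter (GRCr8, chr1:105221377-105221626, minus strand) is shown with the match, which lies on the opposite strand and begins 143 bases before the start, in capitals.
Fgf21: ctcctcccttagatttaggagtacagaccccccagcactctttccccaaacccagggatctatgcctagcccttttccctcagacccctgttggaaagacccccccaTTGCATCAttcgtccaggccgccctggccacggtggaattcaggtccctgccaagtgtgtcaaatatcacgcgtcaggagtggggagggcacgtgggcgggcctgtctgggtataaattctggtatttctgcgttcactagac

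**Figure D5:**
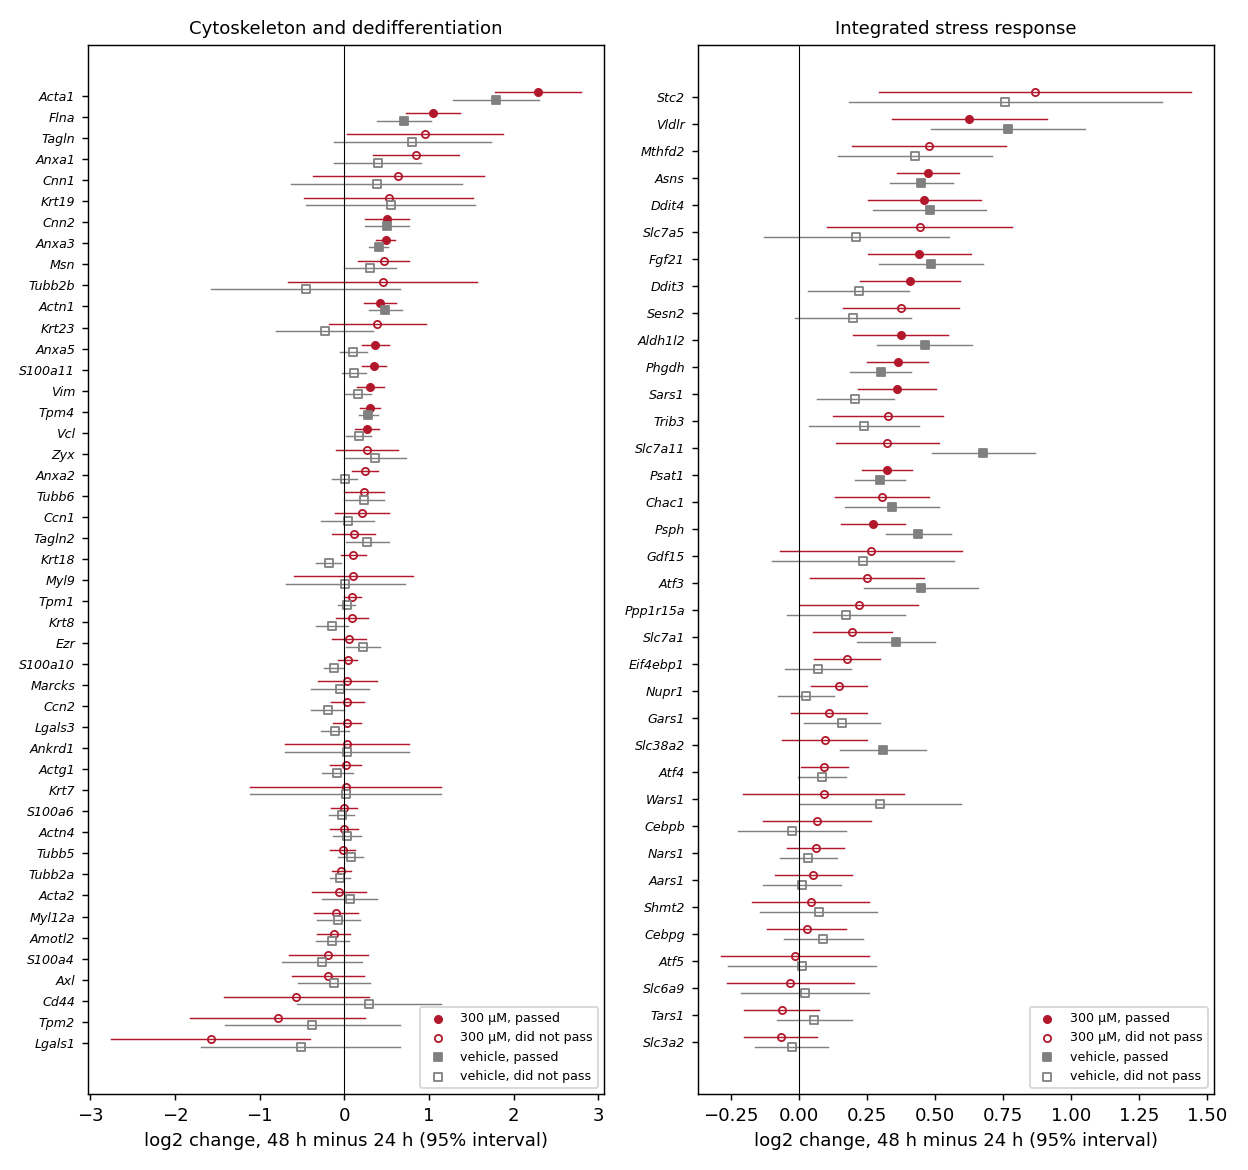
Log2 change from 24 h to 48 h with its 95% interval for every measured member of the cytoskeleton and dedifferentiation list (left) and the integrated stress response list (right), 300 µM in red above vehicle in grey. Filled points passed the test, and all 20 members that rose at 300 µM lie right of zero in vehicle as well.

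Sugar and fat metabolism moved in single genes. Of 26 genes of gluconeogenesis, glycolysis and glycogen, 4 rose and none fell: Pck2 (0.78), the glucose carrier gene Slc2a1 (0.72), the glycolysis regulator gene Pfkfb3 (0.90) and Ppp1r3b (0.51). Pck2, the mitochondrial carboxykinase gene, had 11.59, 11.37, 11.68, 11.38 and 11.33 at 48 h, against 10.74, 10.70, 10.61, 10.62 and 10.75 at 24 h (0.78, adjusted p 1.06e-06). Pfkfb3 and Ppp1r3b lost their calls without array 1 of the 48 h wells or array 2 of the 24 h wells, and Ppp1r3b also without array 3 of the 48 h wells. In vehicle 2 of these genes rose and 4 fell. Of 38 genes in the list of PPARalpha targets and fat burning, Cd36, Fgf21 and Hadhb (0.25) rose. Cd36, the fatty acid uptake gene, had 13.61, 13.75, 13.80, 13.91 and 13.42 at 48 h, against 12.87, 12.88, 13.01, 12.88 and 12.86 at 24 h (0.80, adjusted p 1.8e-08). Of 27 lipogenesis genes 1 rose, Cidea (0.26), and 1 fell, Nr1h3. Cidea lost its call with array medians centred (adjusted p 0.318), with plain eBayes (0.0580) and without array 2 of the 24 h wells (0.0643).

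Of 36 cytokine, chemokine and NF-kB genes, 4 fell: Cxcl1, Cxcl11 (-0.80), Icam1 (-0.54) and the interleukin receptor gene Il1r1 (-0.35). Icam1 lost its call with any of 6 single arrays left out (adjusted p up to 0.119). Cxcl1 had 10.80, 10.40, 10.32, 10.86 and 9.59 at 48 h, against 11.68, 12.14, 11.82, 11.69 and 11.86 at 24 h, with no overlap (-1.44, adjusted p 5.49e-07, and -1.35 in vehicle). Of 36 acute phase and complement genes, Cd14 (-0.35), Serpina3m (-0.33), C8g (-0.29) and C8b (-0.23) fell. Hamp, the gene of the iron hormone hepcidin, rose by 0.82 with overlap between the times, and lost its call with any of 4 single arrays left out. The transferrin receptor gene Tfrc had 13.84, 13.82, 13.94, 14.10 and 13.96 at 48 h, against 14.57, 14.55, 14.44, 14.63 and 14.72 at 24 h (-0.65, adjusted p 8.07e-08). Of 23 heme and iron genes, Tfrc and Por fell and Hamp and the iron exporter gene Slc40a1 (0.35) rose.

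Several lists had no or few members past the test. None passed among 47 cell cycle, 20 p53, 19 clock, 46 respiratory chain and 32 cytosolic ribosomal protein genes. Of 32 proteasome genes, Psmd11 and Psmc3 (both -0.25) fell, against 12 in vehicle, a difference between counts that was not tested. Of the 32, 29 lay below zero at 300 µM, with a median of -0.12 there and -0.17 in vehicle. No probe set of any list passed the test for a different time change from vehicle, so that test says nothing particular to this list. Single genes passed in the Nrf2 list (Gss, -0.22), the interferon list (Oas1a, -0.54) and the heat shock list (Cryab, 0.30), the last losing its call with any of 7 single arrays left out and Oas1a with any of 9 left out. Of 9 AhR targets, Cyp1a2 and Nfe2l2 (-0.23) fell. Egr2 and Maff (0.39) rose among 35 immediate early genes, Maff losing its call with any of 7 single arrays left out (adjusted p up to 0.149), and Ddit4 rose and Serpina6 and Cebpd fell among 25 glucocorticoid targets.

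Whether time acted differently at 300 µM than in vehicle was tested directly as the difference of the 2 time changes. No probe set passed in limma after adjustment, the smallest adjusted p was 0.292, and 1893 of 31042 (6.1%) had an unadjusted p under 0.05. The smallest p belonged to the probe set shared by the glutathione transferase genes Gsta5 and Gsta2. It stood at 16.11 ± 0.0374 at 48 h and 16.09 ± 0.0643 at 24 h at 300 µM, and at 15.12 ± 0.085 at 48 h and 15.56 ± 0.16 at 24 h in vehicle. The difference was 0.46 (interval 0.28 to 0.64), and it passed with array weights (adjusted p 0.0191) or without the 2 arrays that stood apart (0.00272). A value past the threshold at 300 µM and short of it in vehicle, as in Mvd or Il1r1, is therefore not shown to differ between them.

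Against 3000 µM, 71 probe sets (0.229%) differed in their time change, 49 (0.158%) with a more positive change at 300 µM. Both this test and that against vehicle use the same 300 µM arrays. Acta1 had a time change of 2.29 at 300 µM and 0.72 at 3000 µM (difference 1.56, adjusted p 0.0440), Npy of 1.44 and 0.20 (1.24, adjusted p 0.0200) and Egr2 of 1.23 and -0.34 (1.58, adjusted p 0.00313). These 3 rose at 300 µM and in vehicle and did not pass at 3000 µM. In the other direction, the antiviral gene Rsad2 stood at 0.42 at 300 µM, which did not pass, and at 1.82 at 3000 µM. Sfn, a cell cycle gene of epithelia, stood at 0.76 at 300 µM and 1.76 at 3000 µM, and Abcb1a, the gene of a drug efflux pump, at -0.28 and 0.46, the first of which did not pass. Of the 648 probe sets, 595 had the same sign at 3000 µM, 379 also passed there to the same side and 3 to the other (6.21% of all probe sets passed at 3000 µM).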

How the data were processed

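Signals were the authors' deposited intensities, summarised per probe set with MAS5, per the submitters' processing notes, from GeneChip arrays of 30 wells. Log2 of each deposited intensity was taken with no constant added. The 57 control probe sets were left out, which left 31042. The 6 group means over all 30 arrays were fitted in limma 3.58.1 (R 4.3.3), with eBayes using a trend and robust estimation, and p-values were adjusted over all 31042 probe sets by the Benjamini-Hochberg method. A change passed at an adjusted p under 0.05. Time changes at different doses were compared as contrasts in the same fit. A gene was read from its brightest probe set with a single symbol (20826 probe sets had 1 symbol, 436 several and 9780 none, and the last 2 kinds entered counts of probe sets only, apart from the shared Cyp2b1/Cyp2b2 and Gsta5/Gsta2 probe sets). Named genes were the 15 largest rises and 15 largest falls among changed genes whose arrays did not overlap and whose higher mean reached the median of all log2 values, up to 4 changed members per list with the largest changes, the genes that differed most between doses, and fixed P450, receptor and hepatocyte genes, with list members named beyond these by their test. The members, the 35 gene lists, the 6 marker lists and the promoter motifs were chosen with earlier results of these data known. Wells of a group carry running numbers in sets of 6, and deviations from group means within a set correlated at -0.0415 to 0.0200 at 300 µM, so the numbers were not taken as pairs. Alternatives covered the scaling, filter, added constant, arrays fitted, weights, eBayes settings, block and leaving out each array. The fit was tested on simulated data. Promoters are from RefSeq, GRCr8. The number of arrays limits the precision, and p-values measure the spread between wells.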

Additional observations from a re-analysis of the deposited data

Results flagged for a closer look

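Over 120 named genes at 2 times, 240 groups of 5 wells, a single well was far from the other 4 in 12 cases (5%). Far means a gap to the next well above 0.71 of the range of the 5. Many of these genes were chosen by the test or for wells without overlap, so no chance rate is set beside this share. Among 24 h wells, array 2 was lowest for Eno2 (7.60, against a mean of 8.47 in the others), for Prkcb (10.23, against 11.16) and for Epcam (12.96, against 13.15). Array 3 at 24 h was lowest for Car3 (10.80, against 11.03) and highest for Cd36 (13.005, against 12.87). Array 4 at 24 h was highest for Serpine2 (8.79, against 8.47), and array 5 was highest for Cyp3a9 (10.54, against 10.06) and for Pon1 (14.40, against 14.06). Among 48 h wells, array 4 was lowest for Prkcb (11.86, against 12.21) and Cyp1a2 (12.34, against 12.57), array 5 for Car3 (9.47, against 10.04) and array 1 for Oas1a (9.41, against 9.70).

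For 14 named genes the time change at 300 µM differed from that at 3000 µM in limma. The difference, 300 µM minus 3000 µM, was positive for Acta1 (1.56, adjusted p 0.0440), Npy (1.24, adjusted p 0.0200), Egr2 (1.58, adjusted p 0.00313), Steap4 (1.41, adjusted p 0.00264) and Cd209f (1.12, adjusted p 0.0168). It was also positive for Fga (0.61, adjusted p 0.00645), Il1r1 (0.59, adjusted p 0.00313) and C8g (0.40, adjusted p 0.0318). It was negative for Rsad2 (-1.39, adjusted p 0.0114), Sfn (-0.99, adjusted p 0.00428), Tcp11l2 (-0.80, adjusted p 1.37e-06), Abcb1a (-0.74, adjusted p 0.0176), Nudt5 (-0.71, adjusted p 0.0312) and Cxcl11 (-0.67, adjusted p 0.0338). Il1r1 and C8g fell at both doses, by more at 3000 µM, while Steap4 and Cd209f passed at 3000 µM only, each falling there.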

How the results depend on the processing

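The count of changed probe sets at 300 µM was 648, 381 with array medians centred (155 higher, 226 lower) and 989 with array weights. Without the 2 arrays that stood apart it was 904 (499 higher, 405 lower), and it ran from 442 to 591 with each array left out. In vehicle it was 512 with medians centred and 635 to 911 with each array left out, and at 3000 µM 787 with only the compared groups fitted and 1525 to 2185. The difference between 300 µM and vehicle had 0 calls, 0 to 0 with each array left out, and 1 with only the compared groups, with array weights, or without the 2 arrays that stood apart. The difference from 3000 µM had 71 calls, 15 with medians centred, 124 with the filter on dim probe sets, 46 with only the compared groups and 17 with plain eBayes, and 47 to 216 with each array left out: 216 without array 1 of the 48 h wells at 3000 µM, and 47 without array 4 of the 24 h wells at 300 µM. The replicate block on sets of 6 running numbers gave 641 at 300 µM; the numbers are not shown to pair wells. The other alternatives moved these counts by less than 1.5 times. Of 98 named genes that passed, 66 passed in all 20 settings, 32 lost the call in 1 or more and none reversed; Tat, which did not pass, passed in 3 alternatives, and Cyp2b1/Cyp2b2 in 1, with only the compared groups fitted (adjusted p 0.000103). Of 861 list counts, 729 stayed within 1.5 times. The signal of dim probe sets limits what can be called: 631 of the 648 lay at or above the median level.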

Other observations

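A small set of probe sets that changed at 300 µM lay on the other side of zero in vehicle: 22 of 648, of which 10 rose and 12 fell at 300 µM and 15 reached the median level. Examples here were chosen after their values were seen. A probe set of the alcohol dehydrogenase gene Adh1c, not its brightest, had log2 signals of 11.60, 11.53, 11.61, 11.32 and 11.18 in the 48 h wells, against 11.0018, 10.58, 10.79, 10.87 and 10.85 in the 24 h wells at 300 µM. In vehicle it had 11.42, 11.43, 11.24, 11.33 and 11.25 at 48 h, against 11.60, 11.67, 11.17, 11.75 and 11.48 at 24 h. The wells did not overlap at 300 µM (0.63, limma adjusted p 0.00136) and did in vehicle (-0.20, adjusted p 0.490), and the difference of 0.83 (interval 0.49 to 1.17) missed the threshold (adjusted p 0.334). The brightest Adh1c probe set was at 0.14 at 300 µM (adjusted p 0.607), so the probe sets of this gene disagree. Slc35b1 fell by 1.12 (adjusted p 0.0201) and stood at 0.18 in vehicle, and Tmem106b fell by 0.71 (adjusted p 0.0161) and stood at 0.15 in vehicle. The wells of both genes overlapped between the times at 300 µM, and neither difference from vehicle passed (adjusted p 0.620 for both).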
